A study of Mus musculus with 12 samples.

Results

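The 9 genes described here are the EGR transcription factors *Egr1*, *Egr2* and *Egr3*, their co-repressors *Nab1* and *Nab2*, the transcription factor *Srf*, and the immediate early response genes *Ier2*, *Ier3* and *Ier5*. They were taken by gene name from the 52636 genes listed in the count tables, and all 9 were listed for neutrophils and for macrophages. Rows were picked by name and not by a measured value, but the members were chosen with earlier results of these data known.

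Immediate early genes are transcribed within minutes of a stimulus without new protein synthesis. Many carry CArG boxes, the sites bound by SRF, which works with ELK factors phosphorylated by the kinase ERK or with the actin-regulated MRTF proteins. EGR proteins are zinc-finger factors that bind GC-rich sites, and NAB1 and NAB2 bind EGR proteins and repress their target genes. In macrophages, EGR and NAB proteins are known from differentiation under M-CSF, in which they act against neutrophil genes.

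Neutrophils and monocytes were isolated from the bone marrow of C57BL/6J mice aged 8 to 12 weeks. The neutrophils were treated directly, in RPMI. The monocytes were first held for 3 days in DMEM/F12 with M-CSF at 10 ng/ml, and the labels name them monocyte/macrophage; they are called macrophages here. CGRP, a neuropeptide of sensory nerve endings whose receptor raises cAMP, was given at 1 nM for 4 h, and controls received saline (PBS), which made 4 groups of 3 libraries. Total counts per library lay between 2719556 and 3631989 in saline neutrophils, 2196558 and 3270388 in CGRP neutrophils, 2536415 and 3477069 in saline macrophages, and 2002559 and 3259073 in CGRP macrophages. At these depths 3 counts correspond to 0.826 to 1.50 CPM, the count scaled to a fixed library total, a floor that covers counting error only. Neither the labels nor the methods say that the libraries came from separate mice, so p-values measure the spread between libraries, which may be technical.

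The labelled cell types were checked on fixed markers. The 13 neutrophil markers summed to between 166399 and 214647 CPM in neutrophil libraries and to between 334 and 438 CPM in macrophage libraries. The 11 macrophage markers summed to between 11661 and 14500 CPM in macrophage libraries, with *C1qb* the most abundant, and to between 705 and 817 CPM in neutrophil libraries, with *Cd68* the most abundant. Markers of other cells were also present: 5 erythroid markers summed to between 5830 and 6735 CPM in neutrophil libraries and to between 19.7 and 26.4 CPM in macrophage libraries. Of the 8 marker lists, 46 genes could be tested in neutrophils and 29 in macrophages, and 0 passed for CGRP by limma-voom with an adjusted p threshold of 0.05, by edgeR or by DESeq2. At an unadjusted p under 0.05 in limma-voom stood 7 in each. Over all genes these were fewer than 1337 of 9819 in neutrophils and fewer than 2118 of 9393 in macrophages.

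Promoter sequence, from 250 bases before to 50 bases after a RefSeq transcription start on GRCm38.p6, was at hand for *Egr2* (5 starts), *Ier3*, *Ier5*, *Nab1*, *Nab2* and *Srf*. Windows of *Egr1*, *Egr3* and *Ier2* were not used here. The sites below are shown because SRF and EGR proteins, which bind such letters, are themselves products of the 9 genes. They are printed 5′ to 3′ on the strand of the gene, with CArG boxes or the EGR motif GCGNGGGCG in capitals; the first *Nab1* site reads as that motif on the other strand.
Egr2, chr10:67537484-67537513, plus strand, CArG box: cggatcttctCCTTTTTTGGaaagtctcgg
Egr2, chr10:67537787-67537816, plus strand, CArG box: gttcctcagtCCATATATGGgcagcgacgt
Srf, chr17:46556215-46556244, minus strand, a pair of CArG boxes: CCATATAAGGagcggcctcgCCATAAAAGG
Nab1, chr1:52500570-52500599, minus strand, EGR motif: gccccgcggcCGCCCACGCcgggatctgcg
Nab1, chr1:52500538-52500567, minus strand, EGR motif: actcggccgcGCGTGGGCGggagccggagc
Nab1, chr1:52500467-52500496, minus strand, EGR motif: gcggggcgggGCGGGGGCGgcggaggtggc

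Each *Egr2* box begins 72 bases before a start, at 67537566 and at 67537869. The *Srf* boxes begin 82 and 62 bases before the start at 46556162, and the *Nab1* motifs begin 141, 109 and 38 bases before the start at 52500448. A CArG box on either strand was present in 1.63% of the 32851 promoter windows of this length, and GCGNGGGCG in 5.55%. The *Srf* window also held 1 GCGNGGGCG, 101 bases before the start. TGACG, the core of the cAMP response element, was found in *Egr2*, *Nab1* and *Srf* windows and in 20.8% of all windows. The windows of *Ier3*, *Ier5* and *Nab2* held none of these 3 motifs; *Ier3* and *Ier5* each held 2 copies of CCAAT, which was present in 37.4% of windows. A match is a description of letters, not of a bound site.

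In macrophages, CGRP changed 3 of the 8 genes with enough counts to test. *Egr2* fell 5.52-fold, *Ier3* rose 2.62-fold and *Ier2* rose 1.65-fold. Among all 9393 genes tested in macrophages, 7.43% passed the same test, 3.46% higher and 3.97% lower with CGRP. These were 325 genes up and 373 down; without TMM scaling they were 245 and 405. The CGRP and saline libraries did not overlap for 5 of the 8 genes, 3 higher (*Ier2*, *Ier3* and *Nab1*) and 2 lower (*Egr2* and *Ier5*), as for 24.1% of all genes tested (11.9% higher, 12.3% lower).

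In neutrophils, 6 genes could be tested and none passed by limma-voom; 1 passed by edgeR and 0 by DESeq2. *Nab1* (0.66) and *Ier5* (−0.60) were the furthest from 0 on the log2 scale. These 2 had an unadjusted p under 0.05, as did fewer than 1337 of all 9819 genes. Among the 9819 genes tested in neutrophils, 2.53% passed, 1.51% higher and 1.02% lower. The groups did not overlap for 3 of the 6, *Ier2* and *Nab1* higher and *Ier5* lower, as for 17.8% of all genes (8.96% higher, 8.83% lower). The median log2 fold change of the tested members was −0.16 in macrophages and 0.19 in neutrophils, beside 0.0047 and 0.00080 over all genes. CGRP moved 148 genes up and 100 down in neutrophils; without TMM scaling these counts were 150 and 64. Because RNA was measured in bulk, fewer expressing cells and less RNA per cell cannot be told apart.

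**Figure D1:**
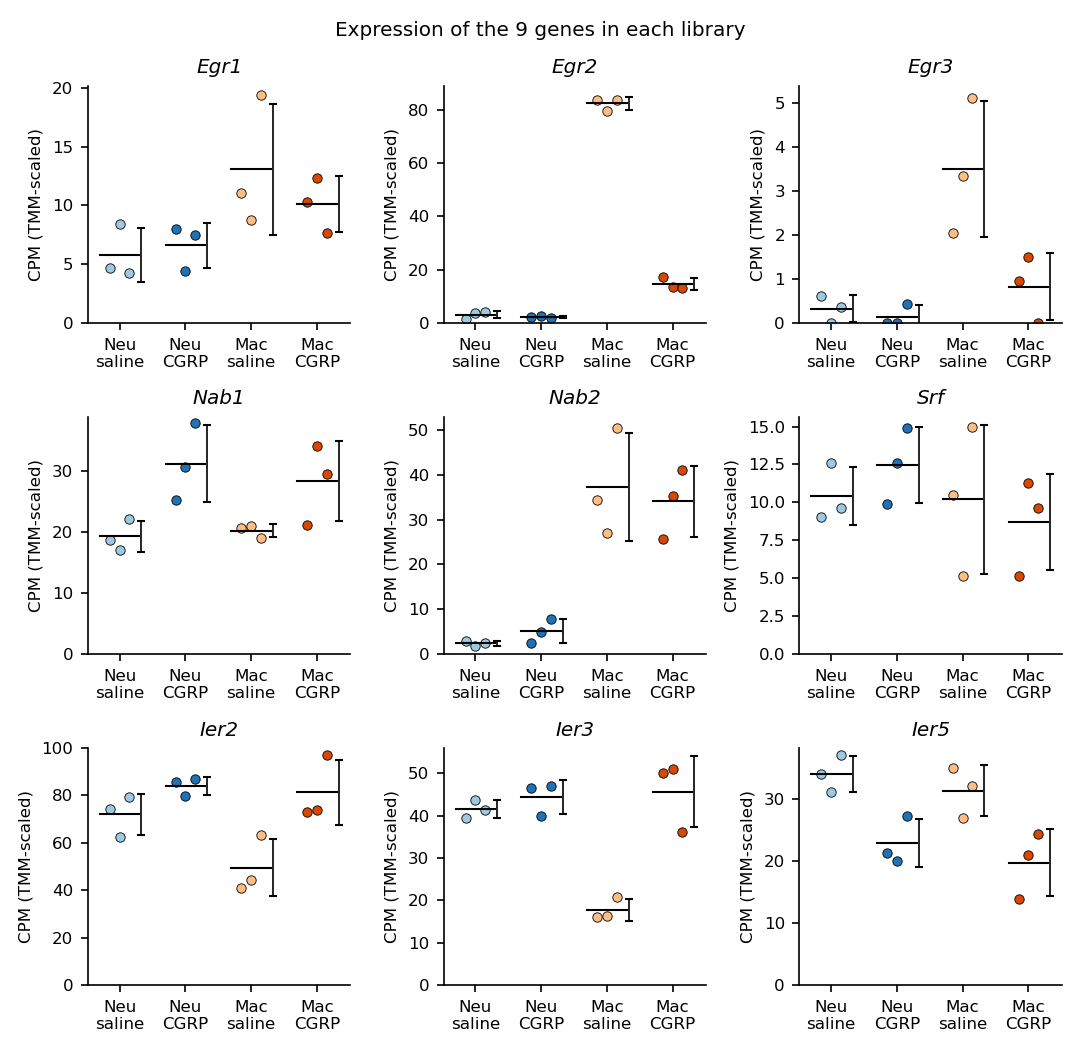
Level of each gene in TMM-scaled CPM (scaled within each cell type; the axis of each panel starts at 0), with 1 point per library, the mean as a line and the SD as a bar, in neutrophils (Neu) and macrophages (Mac). *Egr2* stands near 80 CPM in saline macrophages only and near 15 CPM after CGRP, *Ier3* in macrophages lies between 36.1 and 51.0 CPM after CGRP, above all saline libraries, and *Ier5* is lower with CGRP in both cell types.

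*Egr2* (ENSMUSG00000037868; GRCm38 chr10:67535475-67542188, plus strand), the EGR factor known for roles in myelination and in macrophages, carried the largest change among the 9 genes. Its levels in saline macrophages were 83.8, 79.7 and 83.7 CPM, and after CGRP they were 17.3, 13.5 and 13.2 CPM. The groups lay far apart, at 82.4 ± 2.35 and 14.7 ± 2.30 CPM (SD, n = 3). The log2 fold change was −2.46 (SE 0.20, 95% confidence interval −2.88 to −2.05, adjusted p = 8.94e-07, limma-voom), rank 14 among the 373 genes that fell and rank 12 by p among all genes. Leaving out each library in turn gave −2.60 to −2.40, and all 6 fits passed.

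In neutrophils *Egr2* was near the floor. Saline libraries held 5, 12 and 12 counts and CGRP libraries 7, 9 and 4 counts, and the groups overlapped. Over the group sums of 29 and 20 counts, the ratio of saline to CGRP was 1.37 (95% exact interval 0.748 to 2.55, counting error only). The gene was too low to enter the test within neutrophils. Over all 12 libraries, the CGRP effect on *Egr2* in macrophages minus that in neutrophils was −2.11 on the log2 scale (SE 0.49, adjusted p = 0.0191). The gene entered that fit through the macrophage libraries, where it is high. The call was lost in 3 of 12 fits with 1 library left out: the adjusted p was 0.0849 without saline neutrophil replicate 1, 0.0692 without CGRP neutrophil replicate 1 and 0.0938 without CGRP neutrophil replicate 2, with the same direction each time.

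*Egr1* (ENSMUSG00000038418; chromosome 18, 34859823 to 34864984), the founding EGR factor, was measured at low counts in all groups. Saline macrophages held 11.1, 8.79 and 19.4 CPM and CGRP macrophages 10.3, 12.4 and 7.62 CPM. Saline neutrophils held 4.67, 8.39 and 4.27 CPM and CGRP neutrophils 7.96, 4.40 and 7.46 CPM. The groups overlapped in both cell types. The intervals of the log2 fold change, −0.92 to 0.42 in macrophages and −0.57 to 0.87 in neutrophils, leave changes of either sign within reach, and the direction turned with the library left out.

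*Egr3* (ENSMUSG00000033730; GRCm38 chr14:70077203-70082614, plus strand), a further EGR factor, was rarer still. Saline macrophages held 7, 11 and 14 counts and CGRP macrophages 3, 4 and 0 counts. Those groups did not overlap, and the ratio of saline to CGRP over the sums of 32 and 7 counts was 3.74 (95% exact interval 1.62 to 10.0, counting error only). It failed the filter on low counts; with no filter, the log2 fold change was −2.11 with an adjusted p of 0.0526. Neutrophils held 3 counts in all with saline and 1 with CGRP, at or under the floor. Of the RNA sequence at its 3′ end, 2.34% of the 31-base words also occur in another gene, with *Egr2* sharing the most.

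*Nab1* (ENSMUSG00000002881; GRCm38 chr1:52457294-52500679, minus strand), the constitutive EGR co-repressor, was higher with CGRP in neutrophils in every library. The saline levels were 18.7, 17.1 and 22.1 CPM and the CGRP levels 25.2, 30.5 and 37.7 CPM. The log2 fold change was 0.66 (SE 0.18, 95% confidence interval 0.28 to 1.04), and its adjusted p of 0.0619 missed the threshold. It passed with edgeR (adjusted p = 0.0460), with quality weights per library (0.0393), with the replicate number as a block (0.0327), and without CGRP neutrophil replicate 1 (0.0209).

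In macrophages, *Nab1* stood at 20.7, 20.9 and 19.0 CPM with saline and at 21.2, 34.1 and 29.5 CPM with CGRP. The groups did not overlap, though the lowest CGRP library lay just above the saline libraries. The log2 fold change was 0.43 (SE 0.22, 95% confidence interval −0.03 to 0.90, adjusted p = 0.288). The neutrophil and macrophage effects differed by −0.22 (95% confidence interval −0.82 to 0.37, adjusted p = 0.818). Of the 31-base words at the 3′ end of *Nab1*, 17.6% occur in another gene, most in *Cog7*, so its counts are uncertain; *Cog7* itself had log2 fold changes of −0.18 in neutrophils and −0.06 in macrophages.

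*Nab2* (ENSMUSG00000025402; GRCm38 chr10:127660918-127668568, minus strand), the co-repressor that EGR proteins induce as feedback, was tested in macrophages only. Its saline levels were 34.4, 27.0 and 50.4 CPM and its CGRP levels 25.7, 35.2 and 41.2 CPM. These groups overlapped, with a log2 fold change of −0.12 (SE 0.24, 95% confidence interval −0.62 to 0.38, adjusted p = 0.834). Neutrophil counts were 9, 6 and 7 without and 8, 17 and 18 after CGRP, groups that overlapped at the lowest CGRP library. The ratio of saline to CGRP over sums of 22 and 43 counts was 0.483 (95% exact interval 0.275 to 0.825, counting error only), and with no filter the log2 fold change was 0.89 (adjusted p = 0.577).

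*Stat6* and *Nemp1* overlap *Nab2* on the opposite strand, by 40 and 1668 bases. Whether strand was used in counting is not given in the sources used here, so *Nab2* reads and theirs may not be told apart. *Stat6* had log2 fold changes of −0.04 in macrophages and 0.12 in neutrophils, and *Nemp1* of 0.62 (adjusted p = 0.323) and −0.15. None of these passed the test.

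*Srf* (ENSMUSG00000015605; GRCm38 chr17:46548329-46556175, minus strand) was not called in either cell type. Macrophages held 10.5, 5.15 and 15.0 CPM with saline and 5.13, 11.2 and 9.65 CPM with CGRP, and neutrophils held 9.03, 12.6 and 9.62 CPM with saline and 9.87, 12.6 and 14.9 CPM with CGRP. The groups overlapped in both cell types. Its log2 fold change was −0.19 in macrophages (95% confidence interval −1.03 to 0.65) and 0.22 in neutrophils (−0.28 to 0.73). Of the saline macrophage libraries, replicate 2 held 17 counts and replicate 3 held 41.

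**Figure D2:**
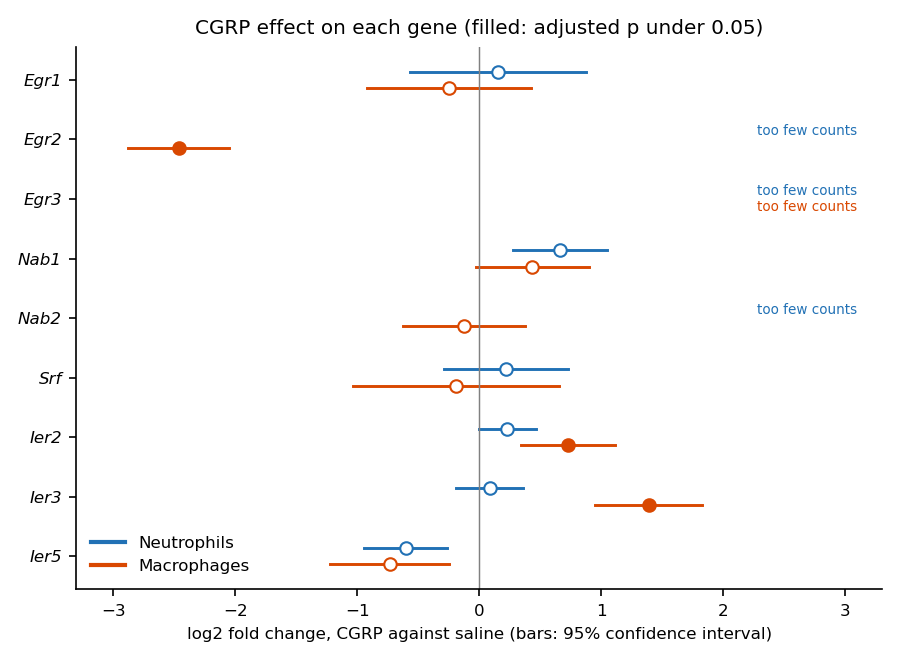
Log2 fold change of CGRP against saline for each gene (points, filled where the adjusted p is under 0.05) with its 95% confidence interval (lines), from limma-voom on the 6 libraries of each cell type. *Egr2* at −2.46, *Ier3* at 1.39 and *Ier2* at 0.73 are filled, all in macrophages; *Ier5* and *Nab1* have the same sign in both cell types.

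*Ier3* (ENSMUSG00000003541; GRCm38 chr17:35821684-35822923, plus strand), which encodes a stress-inducible regulator of cell survival, rose in macrophages. The saline libraries held 16.0, 16.4 and 20.8 CPM and the CGRP libraries 50.1, 51.0 and 36.1 CPM. No CGRP library came near the saline group. The log2 fold change was 1.39 (SE 0.21, 95% confidence interval 0.94 to 1.83, adjusted p = 0.000417), rank 92 among the 325 genes that rose, and it passed whichever of the 6 libraries was left out.

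Neutrophils held *Ier3* at 39.6, 43.8 and 41.3 CPM with saline and at 46.5, 39.9 and 47.0 CPM with CGRP. The groups overlapped, and the log2 fold change was 0.08 (95% confidence interval −0.19 to 0.36, adjusted p = 0.858). The effect in macrophages exceeded that in neutrophils by 1.32 (SE 0.24, adjusted p = 0.00207), and this difference passed whichever of the 12 libraries was left out. After CGRP, macrophages reached 45.0 ± 8.02 CPM on the scale common to all libraries, beside 44.8 ± 4.22 CPM in CGRP neutrophils (SD, n = 3).

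*Ier2* (ENSMUSG00000053560; GRCm38 chr8:84661331-84662852, minus strand), which encodes a small nuclear protein, rose in macrophages from 41.1, 44.2 and 63.2 CPM to 72.8, 73.9 and 97.0 CPM. The groups did not overlap, and replicate 3 was the highest library of each. The log2 fold change was 0.73 (SE 0.18, 95% confidence interval 0.34 to 1.11, adjusted p = 0.0224). This call was less secure than those of *Egr2* and *Ier3*: the adjusted p was 0.164 without saline macrophage replicate 1, 0.0535 without saline replicate 2, 0.0612 without CGRP replicate 2, 0.109 without CGRP replicate 3 and 0.0559 without TMM scaling.

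In neutrophils *Ier2* stood at 74.1, 62.6 and 79.4 CPM with saline and at 85.7, 79.8 and 86.9 CPM with CGRP. The CGRP libraries were all above the saline libraries, by little. The log2 fold change was 0.23 (SE 0.11, 95% confidence interval −0.01 to 0.47, adjusted p = 0.406). The difference between the cell types, 0.51, did not pass (adjusted p = 0.302).

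*Ier5* (ENSMUSG00000056708; GRCm38 chr1:155096361-155099636, minus strand), which encodes a partner of the phosphatase PP2A and an activator of heat shock factor 1, was lower with CGRP in every library of both cell types. Macrophages went from 34.9, 27.0 and 32.2 CPM with saline to 13.8, 21.0 and 24.4 CPM. Neutrophils went from 34.0, 31.2 and 37.0 CPM to 21.3, 20.0 and 27.2 CPM. Neither pair of groups overlapped.

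The *Ier5* log2 fold change was −0.73 in macrophages (SE 0.23, 95% confidence interval −1.22 to −0.25, adjusted p = 0.0660) and −0.60 in neutrophils (SE 0.16, 95% confidence interval −0.95 to −0.26, adjusted p = 0.0557). Both missed the threshold when each cell type was tested alone. The macrophage value passed with quality weights (adjusted p = 0.0254), with the replicate block (0.0366), in a single fit over the 12 libraries (0.0211) and without saline macrophage replicate 2 (0.0415), and the neutrophil value passed without CGRP neutrophil replicate 3 (0.0362).

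*Ier5* and *Nab1* had the same sign in both cell types, as did *Ier2* and *Ier3*. The CGRP effect averaged over neutrophils and macrophages was computed after these values were seen. Because those signs prompted it, it is given as a description and is not independent evidence for any of them. The averaged log2 fold change was −0.68 for *Ier5* (95% confidence interval −0.97 to −0.39), 0.54 for *Nab1* (0.24 to 0.83), 0.47 for *Ier2*, 0.73 for *Ier3* and −1.41 for *Egr2*. These 5 of the 8 genes lay under the threshold in that fit, as did 6.91% of all 10694 genes (3.5% higher, 3.41% lower), a count from which nothing is read. *Nab1* missed it in 6 of 12 fits with 1 library left out, with an adjusted p of 0.0581 without saline neutrophil replicate 1, 0.0741 without saline neutrophil replicate 2, 0.0524 without CGRP neutrophil replicate 2, 0.0650 without CGRP neutrophil replicate 3, 0.0527 without saline macrophage replicate 1 and 0.0881 without CGRP macrophage replicate 2. For *Ier5* the difference between the cell types was −0.13 (95% confidence interval −0.71 to 0.45).

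Of the 8 genes tested for a difference between the cell types, *Ier3* and *Egr2* were the ones called, beside 2.36% of all genes (1.21% higher and 1.15% lower in macrophages). *Egr2* entered this fit through the macrophage libraries, where it is high, so the count is not read as a result for the members. The calls over all genes comprised 129 with a higher and 123 with a lower effect in macrophages; without TMM scaling they were 88 and 154, and the median difference of all genes moved from 0.02 to −0.10. Neither *Egr2* (−2.23) nor *Ier3* lost its call on that scale. For *Nab2* the difference was −1.02 with an interval of −2.25 to 0.21.

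Without CGRP, the cell types already differed in 5 of the 8 genes tested by limma-voom, 3 higher and 2 lower in macrophages, against 67.9% of all genes (32.5% higher, 35.4% lower). Cell type cannot be told apart here from isolation, medium and days in culture. On the common scale *Egr2* stood at 81.3 ± 2.12 CPM in saline macrophages and 3.2 ± 1.4 CPM in saline neutrophils, and *Nab2* at 36.7 ± 11.7 and 2.40 ± 0.512 CPM (SD, n = 3). Both passed the filter on low counts through the macrophage libraries, where they are high, with 5 to 12 counts of *Egr2* and 6 to 9 of *Nab2* in saline neutrophil libraries. They had to differ in this comparison, so their levels are a description and the count of 5 is not read as a result. *Nab1* was not called, at 19.9 ± 1.07 and 19.6 ± 2.48 CPM. The macrophage markers found at low level in neutrophil libraries, above, were not tested for their part in the few *Egr2* and *Nab2* counts there.

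*Egr1* was also higher in saline macrophages, with a log2 difference of 1.04 (SE 0.34, adjusted p = 0.0104), a call lost without saline neutrophil replicate 1 (0.0536) or saline macrophage replicate 3 (0.0534). In the other direction, *Ier3* was lower in macrophages by a log2 difference of −1.29 (SE 0.18, adjusted p = 1.45e-06) and *Ier2* by −0.62 (SE 0.16, adjusted p = 0.00160). The groups did not overlap for any of these 5 genes, as was the case for 70.5% of all genes (33.9% higher, 36.6% lower). *Ier5* (−0.16, adjusted p = 0.422) and *Srf* (−0.22, adjusted p = 0.557) were not called.

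To place these genes among their kind, 34 other immediate early genes were examined. In neutrophils 29 could be tested, of which 6 rose and 1 fell, with a median log2 fold change of 0.20, beside 1.51% of all genes higher and 1.02% lower. *Fosl1* reached the filter on low counts through its CGRP libraries, so the count is not read as a result for the list. *Fos*, a subunit of the AP-1 factor, went from 154, 163 and 168 counts with saline to 433, 467 and 245 counts with CGRP (log2 fold change 1.30, adjusted p = 1.69e-06). The nuclear receptor *Nr4a2* rose by 1.47 and the pseudokinase *Trib1* by 1.03, while the Krüppel-like factor *Klf4* changed by −0.76. The remaining rises, *Fosl1* (1.95), *Dusp1* (0.41) and *Junb* (0.35), were lost on leaving out 1 library in 5, 5 and 4 of 6 cases, with an adjusted p of up to 0.170, 0.155 and 0.258, and DESeq2 called 3 genes higher.

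In macrophages 26 of them could be tested, of which 7 rose and 5 fell, with a median of 0.02, beside 3.46% of all genes higher and 3.97% lower. *Nr4a2* went from 4, 7 and 11 counts to 131, 117 and 75 counts (log2 fold change 4.22, adjusted p = 3.38e-06). It passed the filter on low counts through its CGRP libraries, as *Fosl1* did in neutrophils, so the count is not read as a result for the list. *Fosl2* (1.81), the kinase *Pim1* (1.62), the antiproliferative gene *Btg2* (1.34), *Junb* (1.08), *Nr4a1* (1.00, with an adjusted p of 0.0669 without saline macrophage replicate 1) and *Fos* (0.77) rose with *Nr4a2*. The stress-responsive factor *Atf3* fell from 834, 958 and 626 counts to 207, 150 and 88 counts (log2 fold change −2.17, adjusted p = 5.61e-07). *Plk2* (−1.96), *Myc* (−1.88), *Jun* (−1.80) and *Klf6* (−0.63) fell as well.

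The difference between the cell types was called for 9 of the 29 tested: *Nr4a2* (2.75), *Fosl2* (1.66), *Btg2* (1.16) and *Junb* (0.74) had the higher effect in macrophages, and *Plk2* (−2.48), *Atf3* (−2.35), *Jun* (−1.64), *Trib1* (−1.09) and *Klf6* (−0.61) the lower. This makes 9 of 29 beside 2.36% of all genes, in a list chosen with earlier results of these data known. *Nr4a2* passed the filter within macrophages through its CGRP libraries. *Plk2*, at 7 to 16 counts per saline neutrophil library, passed the filter of this fit with the macrophage libraries. The count is therefore not read as a result for the list.

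**Figure D3:**
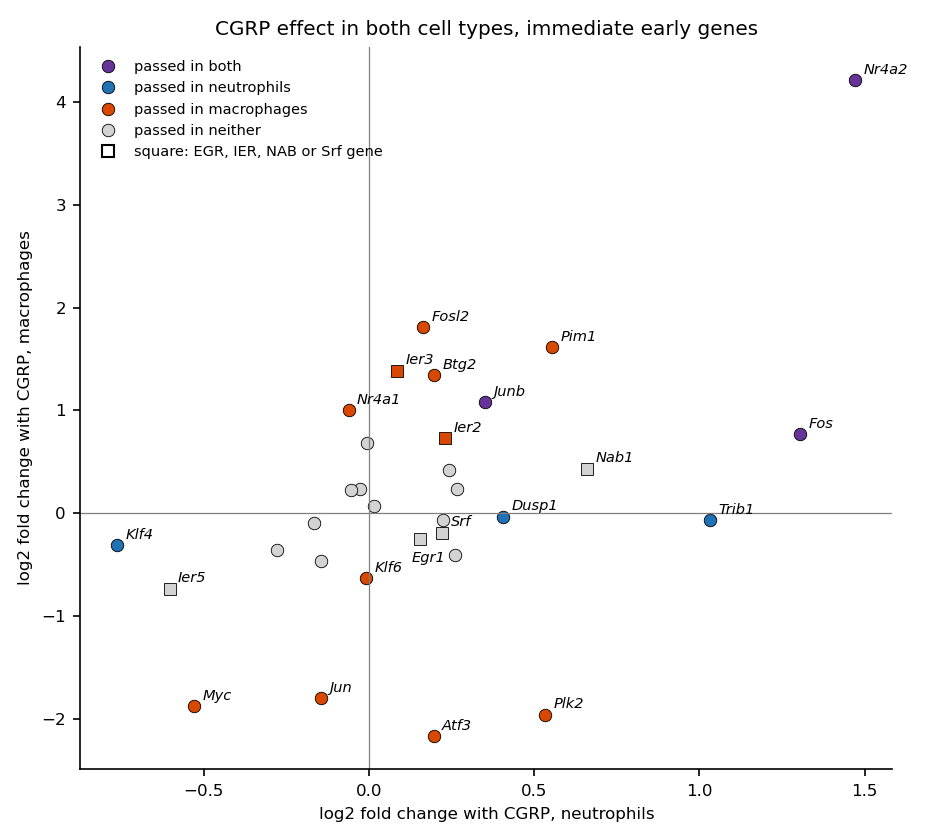
Log2 fold change with CGRP in neutrophils (horizontal axis) and macrophages (vertical axis) for immediate early genes tested in both cell types, as circles, with EGR, IER, NAB and *Srf* genes as squares; colours mark where the adjusted p is under 0.05. *Nr4a2* lies highest, at 1.47 and 4.22, while *Jun*, *Atf3* and *Plk2* lie near −2 on the macrophage axis and within 0.6 of 0 on the neutrophil axis.

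Relatives of the 9 genes were mostly low or not called. *Egr4* and *Wt1*, which share the EGR type of zinc fingers, had 0 counts in all 12 libraries. *Ier5l*, a paralogue of *Ier5*, held 35, 24 and 43 counts in saline and 18, 27 and 23 in CGRP macrophages, groups that overlapped (log2 fold change −0.28, adjusted p = 0.718). Saline neutrophils held 6, 4 and 5 counts of *Ier5l*, and CGRP neutrophils 1, 2 and 2, which failed the filter on low counts; these groups did not overlap, and the CGRP libraries were under the floor of 3 counts. *Sp1*, another factor of GC-rich sites, had log2 fold changes of 0.04 in neutrophils and 0.29 in macrophages, neither of which passed.

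Of 6 SRF cofactors, 5 were tested in each cell type, and 2 passed in macrophages, both higher, beside 3.46% of all genes. This list was chosen with earlier results of these data known, so the count is not read as a result for it. *Mkl1*, which encodes an MRTF protein, went from 89, 75 and 79 counts to 158, 155 and 114 counts (log2 fold change 1.11, adjusted p = 0.000652), and the difference from neutrophils was 1.16 (adjusted p = 0.00151). *Elk3*, an ELK factor, rose by 0.79 (adjusted p = 0.0282), a call lost without saline macrophage replicate 2 (0.108), CGRP replicate 2 (0.0541), CGRP replicate 3 (0.113) or TMM scaling (0.0584). *Myocd* had 0 counts. In neutrophils 0 of the 5 passed by limma-voom, edgeR or DESeq2, and 0 had an unadjusted p under 0.05.

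Of 17 cytoskeletal targets of SRF and MRTF, 16 were tested in each cell type. The list was chosen with earlier results of these data known, so its counts are not read as a result for it. In neutrophils (median −0.14) 0 passed by limma-voom, edgeR or DESeq2. There 7 had an unadjusted p under 0.05 in limma-voom, as did fewer than 1337 of all 9819 genes. In macrophages (median −0.09) 3 passed, 1 higher and 2 lower, beside 3.46% and 3.97% of all genes: *Filip1l* rose by 0.97, and vinculin, *Vcl*, and tropomyosin, *Tpm1*, had changes of −1.08 and −0.58. These calls were insecure: on leaving out 1 of the 6 libraries, *Filip1l* failed in 4 cases, *Vcl* in 4 and *Tpm1* in 2, with an adjusted p of up to 0.169, 0.118 and 0.0679. The *Filip1l* value was 0.59 (adjusted p = 0.169) without CGRP macrophage replicate 1, which held 131 counts beside 55 and 42 in the other CGRP libraries.

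Among 11 genes reported as EGR1 targets, 0 of 8 tested passed in neutrophils, by limma-voom, edgeR or DESeq2 and also at an unadjusted p under 0.05, and 2 of 9 passed in macrophages, 1 higher and 1 lower, beside 7.43% of all genes. In macrophages 6 had an unadjusted p under 0.05 in limma-voom, as did fewer than 2118 of all 9393 genes. The replicate block called 3 higher and 1 lower. Without CGRP macrophage replicate 1, 4 of 10 tested were called, all higher. The count is not read as a result for the list. The growth factor *Vegfa* went from 28, 16 and 32 counts to 150, 106 and 88 counts (log2 fold change 2.52, adjusted p = 1.70e-05). The cytokine *Tnf* went from 24, 13 and 10 counts to 3, 3 and 1 counts (log2 fold change −2.24, adjusted p = 0.0149), close to the floor; it passed the filter on low counts through its saline libraries. The *Tnf* call was lost without saline macrophage replicate 1 (adjusted p = 0.135), CGRP replicate 1 (0.101), CGRP replicate 2 (0.111) or CGRP replicate 3 (0.121).

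ERK activity is read in part from its feedback genes, phosphatases and adaptors that are induced by ERK and restrain it. Of the ERK cascade itself, 0 of 16 genes tested in neutrophils and 0 of 15 in macrophages passed by limma-voom, with 1 and 0 at an unadjusted p under 0.05; edgeR called 1 and 0, and DESeq2 0 in each. Of the 9 feedback genes, 5 had enough counts in macrophages, and 1 was called higher and 4 lower, beside 3.46% and 3.97% of all genes. *Dusp5* reached the filter on low counts through its CGRP libraries, and *Dusp4* and *Dusp7* through their saline libraries, so the count is not read as a result for the list. With 1 library left out, 5 to 7 of the genes were tested and 2 to 3 called. *Dusp5*, a nuclear ERK phosphatase, rose from 9, 4 and 14 counts to 91, 92 and 54 counts (log2 fold change 3.54, adjusted p = 2.57e-05).

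The other 4 feedback genes tested fell in macrophages, as *Egr2* did. *Spred1*, which encodes an adaptor that restrains RAS, went from 69, 82 and 78 counts to 18, 32 and 19 counts (log2 fold change −1.47, adjusted p = 0.00401) and passed whichever library was left out. *Dusp4* (−1.56, adjusted p = 0.0335), *Dusp7* (−1.54, adjusted p = 0.0301) and *Dusp6* (−1.05, adjusted p = 0.0391) encode phosphatases of ERK. They did not overlap between groups, but on leaving out 1 library *Dusp4* failed in all 6 cases (adjusted p 0.0520 to 0.199), *Dusp7* in 5 (up to 0.132) and *Dusp6* in 4 (up to 0.158), so that 1 or 2 of the 4 falls were called whenever a library was left out.

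In neutrophils, *Dusp5* was the one feedback gene of 4 tested that passed, beside 1.51% of all genes higher, with 18, 12 and 13 counts in saline and 44, 48 and 24 in CGRP libraries (log2 fold change 1.49, adjusted p = 0.00487; 0.0641 without saline neutrophil replicate 2). DESeq2 called 0 of the 4 and gave *Dusp5* no adjusted p. The rise of *Dusp5* was larger in macrophages by 2.06 (adjusted p = 0.0242). For *Dusp6* the difference was −1.29 (adjusted p = 0.0269), with 58.3, 65.6 and 58.4 CPM in saline and 65.6, 86.9 and 66.3 CPM in CGRP neutrophils.

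**Figure D4:**
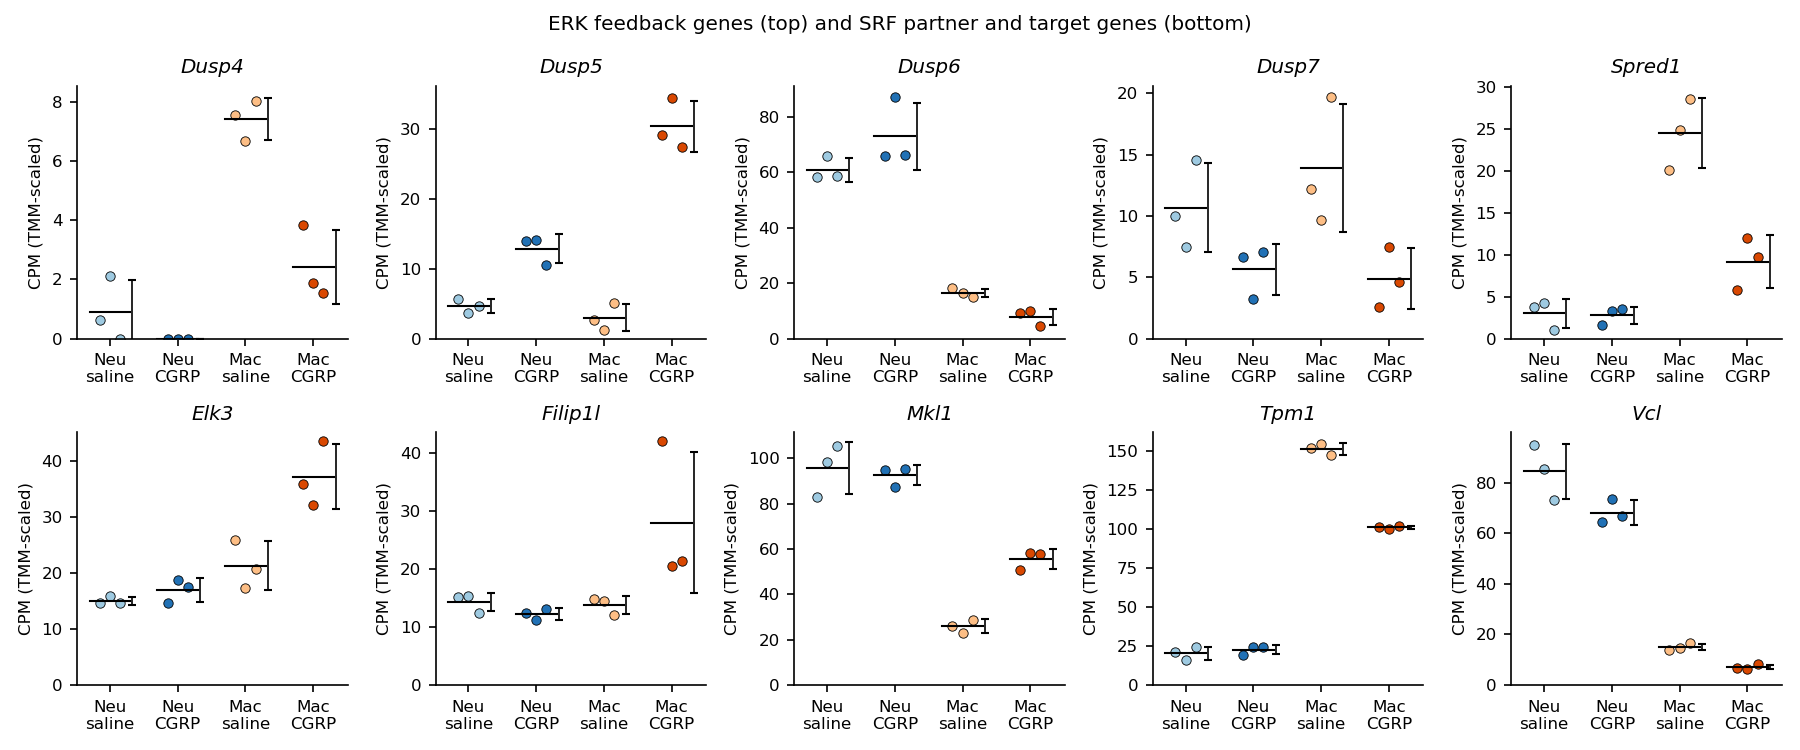
TMM-scaled CPM (scaled within each cell type) of the ERK feedback genes (top row) and of the SRF cofactors and targets (bottom row) whose adjusted p for CGRP is under 0.05 in macrophages, with 1 point per library, the mean as a line and the SD as a bar. In macrophages *Dusp5* and *Mkl1* are higher with CGRP, and *Dusp4*, *Dusp6*, *Dusp7* and *Spred1* are lower, in every library.

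The genes whose levels went most closely with a called member were found over 12 libraries, among 8635 genes, after centring each cell type on its mean. They are given as a description, since the libraries share their treatment. For *Ier3* they were *Plbd1* (Pearson's r = 0.978), *1600014C10Rik* (0.974) and *Btg2* (0.965), and for *Ier2* they were *Nedd9* (0.971), *Fam110a* (0.956) and *Tbc1d17* (0.954). *Egr2* was too low in neutrophils to be included. Over the 6 macrophage libraries alone, a search added after its values were seen, the closest were *Plk2* (0.997), *Fyb* (0.996) and *Tlr1* (0.995), with log2 fold changes of −1.96, −0.62 and −1.51.

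The share of mitochondrial counts moved with treatment in macrophages, at 1.44% to 1.57% with saline and 1.23% to 1.38% with CGRP, and its part in the macrophage results was not tested. In neutrophils it was 1.33% to 1.48% and 1.24% to 1.49%. The summed macrophage markers overlapped between saline and CGRP macrophages, and the neutrophil markers likewise between the neutrophil groups. In macrophages all 11 macrophage markers and all 8 neutrophil markers tested had a log2 fold change above 0. Their medians were 0.19 and 0.38, beside 0.0047 over all genes, and 0 passed. In neutrophils 3 of the 13 neutrophil markers were higher and 10 lower (median −0.12), and 0 passed. Some other marker sums did not overlap between saline and CGRP. In macrophages the 13 neutrophil markers, led by *S100a8*, summed to 334 to 383 CPM with saline and 421 to 438 CPM with CGRP, with *Ly6g* at 0 in 1 library of each group. The 4 dendritic cell markers, with *Cd209a* the most abundant in most libraries, summed to 3.55 to 5.13 and 6.75 to 9.66 CPM. The 5 B cell markers summed to 116 to 159 and 103 to 115 CPM, most of it *Ighm*, with *Cd79a* and *Ms4a1* at 0 in all 6 libraries. In neutrophils the 5 T and NK cell markers, mostly *Nkg7*, summed to 109.1 to 133 CPM with saline and 86.2 to 108.8 CPM with CGRP. The part of these cells in the CGRP results was not tested.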

How the data were processed

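RNA of 12 libraries (bone marrow neutrophils and M-CSF macrophages, saline or CGRP, 3 each) was sequenced from poly-A-primed cDNA carrying a 10-base molecular identifier, so reads lie near transcript 3′ ends. The authors removed PCR copies (nfCore/RNAseq, umi function), aligned to GRCm38 with STAR and deposited raw featureCounts counts per gene, 1 table per cell type; annotation release and strand setting are not given in the sources used here.

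Genes were filtered with filterByExpr, scaled by TMM and tested with limma-voom (two-sided, Benjamini–Hochberg over all genes tested, threshold 0.05), within each cell type and, for differences between cell types, over all 12 libraries. CPM are counts scaled by the TMM library size, except for marker sums and the floor of 3 counts, which use total counts. Exact binomial intervals (95%) cover genes too low to test. Alternatives were edgeR, DESeq2, other scalings and filters, quality weights, thinning, a replicate block and leaving out each library. Steps were tested on simulated data. Members, gene lists and markers were chosen with earlier results of these data known. All members were named, with list genes under an adjusted p of 0.05 in either cell type, relatives and overlapping genes. Positions are from GENCODE M21, which held 52489 of 52636 gene identifiers, and promoters from RefSeq. Software was R 4.3.3, limma 3.58.1, edgeR 4.0.16, DESeq2 1.42.0 and Python 3.11.15.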

Additional observations from a re-analysis of the deposited data

Results flagged for a closer look

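A difference in the CGRP effect between macrophages and neutrophils that passed its own test, the interaction term in limma-voom, brought up 2 of the 9 genes. For *Egr2* the effect in macrophages minus that in neutrophils was −2.11 on the log2 scale (adjusted p = 0.0191), with a fall in each of the 3 CGRP macrophage libraries and 4 to 12 counts per library in neutrophils, too few to test there; the gene passed the filter on low counts of this fit through the macrophage libraries, where it is high. This call was lost in 3 of 12 fits with 1 library left out, with an adjusted p of up to 0.0938. For *Ier3* it was 1.32 (adjusted p = 0.00207), with a rise in each of the 3 CGRP macrophage libraries and overlapping groups in neutrophils. Groups of 3 libraries were not tested for outlying samples.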

How the results depend on the processing

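Counts were too few to test *Egr3*, *Egr2* and *Nab2* in neutrophils and *Egr3* in macrophages. Calls in macrophages fell from 698 to 347 without saline replicate 1, 348 without CGRP replicate 2 and 439 without CGRP replicate 3, and calls in neutrophils from 248 to 138 without saline replicate 1 or saline replicate 2 and 153 without CGRP replicate 2. The cause was not tested. The direction of *Egr2* in macrophages, and those of *Ier2*, *Ier3*, *Ier5* and *Nab1* in each cell type, held in every alternative run.

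Macrophage calls numbered 1406 with quality weights and 1050 in a single fit over 12 libraries, neutrophil calls 137 in the single fit, calls between cell types 520 and averaged calls 1178 with quality weights. In neutrophils 1 member (*Nab1*) was called with edgeR, quality weights or the replicate block. Requiring 10 counts in every library left 1 member called between cell types and 3 between saline groups, since *Egr2* and *Nab2* were then not tested. *Nab1* turned to 0.0258 between cell types with thinned counts, and to −0.000466 (10 counts in every library) and −0.188 (thinned) between saline groups, and the averaged *Srf* value to −0.00944 (edgeR), −0.00625 (DESeq2) and −0.00237 (replicate block), all of them uncalled values.

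Leaving out each library gave 138 to 234 calls in neutrophils, 347 to 765 in macrophages, 149 to 328 between cell types, 6889 to 7559 between saline groups and 535 to 839 averaged, and 0 to 1, 2 to 3, 1 to 2, 4 to 6 and 4 to 5 members called. It turned the sign of uncalled values: *Egr1* in neutrophils (−0.0433 to 0.46), macrophages (−0.49 to 0.0443) and averaged (−0.17 to 0.10), *Nab2* in macrophages (−0.33 to 0.10), *Srf* in macrophages (−0.62 to 0.21), between cell types (−0.84 to 0.00297), between saline groups (−0.51 to 0.21) and averaged (−0.21 to 0.21), *Ier5* between cell types (−0.28 to 0.15), and *Nab1* between cell types (−0.39 to 0.0117) and saline groups (−0.042 to 0.13).

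Same-numbered saline and CGRP libraries did not deviate together throughout. Their r was 0.0435, −0.0126 and 0.135 in neutrophils and 0.0578, −0.176 and 0.267 in macrophages. The numbers were taken as names in the main fits, but with 3 libraries per group these values cannot decide whether libraries were paired. The replicate block gave 266 calls in neutrophils, 915 in macrophages, 337 between cell types, 7434 between saline groups and 905 averaged. Without the block these were 248, 698, 252, 7263 and 739. Not every library correlated best with its own number.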

Other observations

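The saline groups were also compared for the genes around the EGR and IER family, with the saline libraries of the CGRP tests. The counts lie near the 67.9% of all genes called and are not read as a result for these lists. Of 29 other immediate early genes tested by limma-voom, 8 were higher and 14 lower in macrophages, beside 32.5% and 35.4% of all genes. *Plk2* (log2 difference 4.93, SE 0.37), *Atf3* (3.91, SE 0.19), *Myc* (1.96, SE 0.32) and *Jun* (1.87, SE 0.15) had the largest differences among the 8, and *Fos* (1.58) followed. The Krüppel-like factors *Klf2* (−3.97, SE 0.30) and *Klf4* (−3.18, SE 0.25) were lower in macrophages. Of 16 cytoskeletal targets of SRF and MRTF, 2 were higher (*Tpm1*, 2.88, and *Tpm4*, 1.12) and 9 lower, among them *Cnn2* (−3.03), *Vcl* (−2.54) and *Myh9* (−2.17). Of the ERK feedback genes, *Spred1* (3.04) was higher and *Dusp6* (−1.91) lower in macrophages. *Plk2* and *Spred1* were low in saline neutrophils, at 7 to 16 and 3 to 14 counts per library, and had fewer than 3 libraries of either neutrophil group above the minimum of the filter on low counts, which they passed with the macrophage libraries. *Dusp4*, with 0 to 7 counts in saline neutrophils and 22 to 26 in saline macrophages, passed it through the macrophage libraries only, and its difference is not given. Cell type cannot be told apart here from isolation, medium and days in culture.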
